A study of Drosophila simulans and Drosophila kikkawai and Drosophila takahashii with 176 samples.

Results

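The genes of the mitochondrial genome were examined in the *D. melanogaster* accessory gland (AG) and testis tables, as the rows whose FlyBase symbol begins with mt:. They were 37 of 17727 genes, namely 13 mRNAs, 2 rRNAs and 22 tRNAs. The gene name table held 38 such symbols, and mt:ori was the one without a row. The study compared gene activity between the male reproductive organs of several Drosophila species, and 4 AG and 4 testis libraries belong to this species. Each library was made from the pooled organs of adult males, as a directional library of poly(A)-selected RNA. The AG groups were ED10 (n = 2) and y; cn bw sp (n = 2), and the testis groups were likewise ED10 (n = 2) and y; cn bw sp (n = 2). The y; cn bw sp flies, which carry the visible markers yellow, cinnabar, brown and speck, are the strain of the reference genome and are called the reference strain here, whereas ED10 is a non-reference strain. No group was treated. The 4 reference-strain libraries shared 1 dissector and were sequenced on a HiSeq 4000. Of the ED10 libraries, AG replicate 1 came from a HiSeq 3000, testis replicate 1 from a HiSeq 4000, and replicate 2 of both organs from a HiSeq 2500 and from 1 dissector. Strain and dissector therefore cannot be told apart, and neither can the HiSeq 2500 and the dissector of its libraries.

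The mitochondrial genome encodes subunits of the oxidative phosphorylation (OXPHOS) complexes, which pass electrons to oxygen and use the proton gradient to make ATP, together with the rRNAs and tRNAs that translate them inside the organelle. It is transcribed into long precursors, the tRNAs are cut out at the borders of the mRNAs and rRNAs, and the mature mRNAs receive short poly(A) tails in the organelle. Mature tRNAs carry no such tail, so a value for a tRNA in a poly(A)-selected library is not a measure of its mature level. The AG is a secretory gland that makes seminal fluid proteins, and in the testis the mitochondria of each spermatid fuse and extend along the growing sperm tail.

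In the BDGP6 assembly the 37 genes lie between bases 1 and 14916 of mitochondrion_genome, and they are packed almost without spacers. The plus strand carries 9 mRNAs and 14 tRNAs. The minus strand carries mt:ND1, mt:ND4, mt:ND4L, mt:ND5, both rRNAs and 8 tRNAs. The large rRNA gene mt:lrRNA spans bases 12735 to 14058 and the small rRNA gene mt:srRNA bases 14131 to 14916, with mt:tRNA:Val-TAC between them at 14059 to 14130. Neighbours share bases at several borders. mt:ATPase8 (3907 to 4068) and mt:ATPase6 (4062 to 4736) overlap on the plus strand, and mt:CoIII (4736 to 5524) begins on the last base of mt:ATPase6. mt:tRNA:Trp-TCA (1264 to 1329) and mt:tRNA:Cys-GCA (1322 to 1383) overlap on opposite strands. The sources used here do not state whether reads were assigned by strand, so values at these borders are uncertain.

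The values are the authors' TPM, a transcript abundance corrected for gene length, and they add up to between 1070170 and 1959870 per library and not to 1000000, so a level is relative to its own library's scale. Read counts were not used here, and the number of libraries sets the precision. The AG and testis tables are separate, and levels were set side by side on this scale. Between 8.05 and 29.9% of all genes were listed at 0 in a library. The identity of the organs was checked with marker lists. Markers of testis germline (10 genes) summed to 13.2 and 1.25 TPM in ED10 AGs and 537 and 632 TPM in reference-strain AGs, against 11452 to 17953 TPM in testes. Reference-strain AGs thus held 3.65 and 4.30% of the mean testis level, and ED10 AGs 0.0901 and 0.00851%. AG secretion markers (8 genes) summed to 64261 to 262256 TPM in AGs, against 75.8 and 48.2 TPM in ED10 testes and 953 and 2670 TPM in reference-strain testes. The defining markers of each organ were present, except Acp95EF in ED10 AGs. It had 0.0332 and 0.543 TPM there, against 118699 and 87466 TPM in reference-strain AGs. In ED10 testes this gene had 23.7 and 40.1 TPM, which is part of their AG marker sums. By these sums, traces of the other organ were larger in the reference strain.

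A few mitochondrial transcripts were among the most abundant RNAs in both organs. Only 1 member was among the 100 highest genes in each ED10 AG and in the HiSeq 2500 testis library. In the other libraries 6 to 9 members were. All members together varied more between libraries of 1 organ than between organs. They made up 1.85 and 0.755% of the summed TPM in ED10 AGs and 3.76 and 4.39% in reference-strain AGs, against 5.08 and 0.590% in ED10 testes and 8.64 and 6.03% in reference-strain testes. The AG averaged 2.69% ± 1.68 and the testis 5.08% ± 3.35 (SD, n = 4 each), and the organs overlapped. The order depended on the denominator. With the 100 highest nuclear genes of each organ left out, the mean was 7.86% in AGs and 6.83% in testes. In bulk tissue, fewer cells of a mitochondria-rich type and less mitochondrial RNA per cell cannot be told apart.

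**Figure D1:**
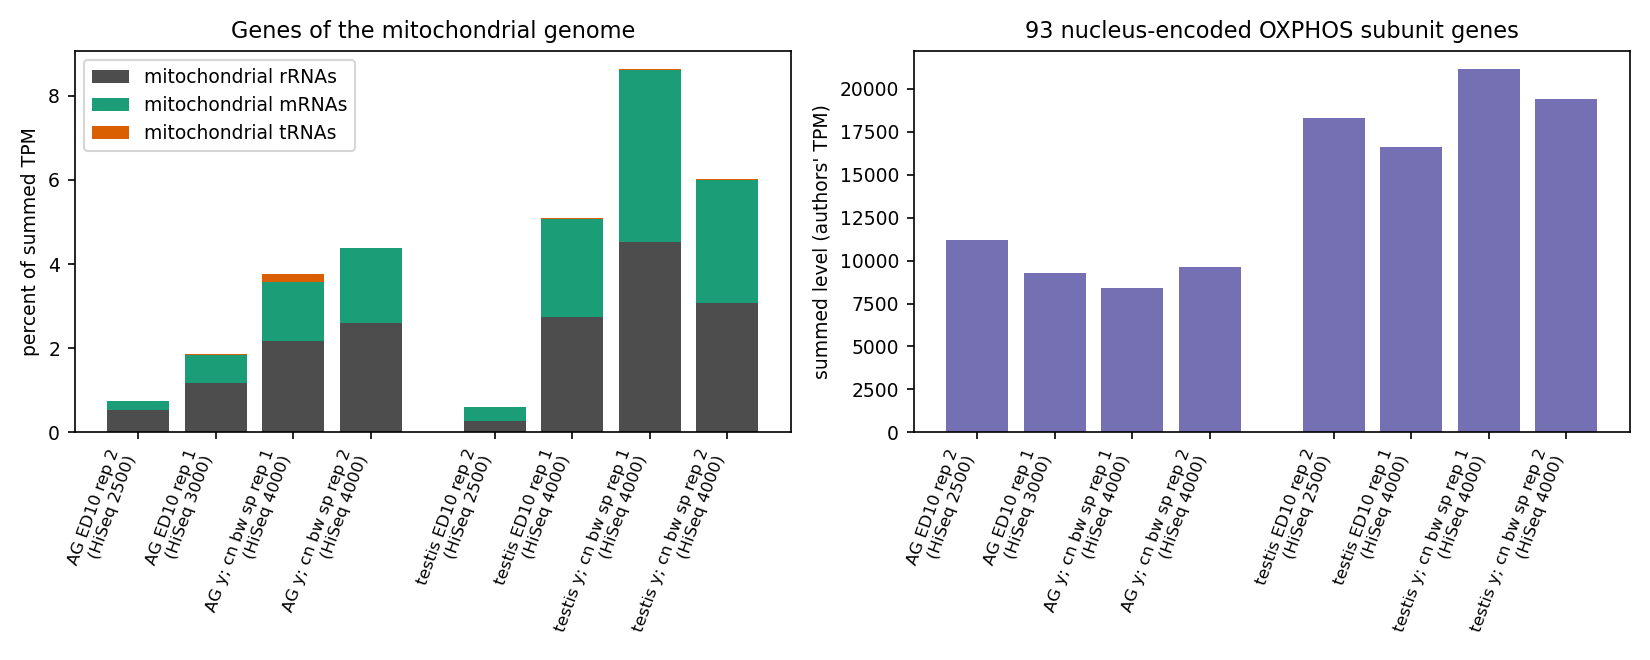
Left, percent of each library's summed TPM (y axis) from mitochondrial rRNAs, mRNAs and tRNAs as stacked bars; right, summed TPM of 93 nucleus-encoded OXPHOS subunit genes in the same libraries. The HiSeq 2500 library is the lowest of its organ on the left, at 0.755% in the AG and 0.590% in the testis, and is not the lowest on the right, at 11179 and 18327 TPM.

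mt:lrRNA, the RNA of the large ribosomal subunit, was the highest member in every library. It had 15235 and 6534 TPM in ED10 AGs and 42662 and 44285 TPM in reference-strain AGs, against 33059 and 2946 TPM in ED10 testes and 55217 and 39040.2 TPM in reference-strain testes. It ranked first among all 17727 genes in both reference-strain testes, and 25th in the HiSeq 2500 testis library. In AGs, where seminal fluid transcripts are higher, its rank was between 5 and 22. The other rRNA was far lower in every library. mt:srRNA, the RNA of the small ribosomal subunit, had 36.1 and 6.32 TPM in ED10 AGs and 52.3 and 90.7 TPM in reference-strain AGs, against 41.4 and 4.98 TPM in ED10 testes and 60.4 and 50.9 TPM in reference-strain testes. The ratio of mt:lrRNA to mt:srRNA lay between 422 and 1034 in AGs and between 591 and 915 in testes, so the organs overlapped. The libraries are poly(A)-selected, and how much of each rRNA was captured was not measured. These values are therefore not total rRNA levels.

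The mRNAs of complex IV, cytochrome c oxidase, were the most abundant of the 13. mt:CoI, which encodes the catalytic subunit, had 2290.3 and 549 TPM in ED10 AGs and 6587 and 7136 TPM in reference-strain AGs, against 6545 and 681 TPM in ED10 testes and 11779 and 8340.3 TPM in reference-strain testes. mt:CoIII had 1657 and 777 TPM in ED10 AGs and 6696 and 6663 TPM in reference-strain AGs, against 6508 and 1058 TPM in ED10 testes and 10103 and 6742 TPM in reference-strain testes. These mRNAs took the first and second place in every library, with mt:CoI above mt:CoIII in 5 of 8. mt:CoII, whose product receives electrons from cytochrome c, had 1324 and 414 TPM in ED10 AGs and 5004 and 4922 TPM in reference-strain AGs, against 3488 and 531 TPM in ED10 testes and 7403 and 6084 TPM in reference-strain testes. It was below mt:CoIII in all 8 libraries. Together the 3 genes held 58.3 to 66.8% of mitochondrial mRNA TPM in AGs and 56.3 to 67.8% in testes.

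mt:Cyt-b is the sole complex III subunit of the organelle's genome. It had 1046 and 447 TPM in ED10 AGs and 3390 and 3952 TPM in reference-strain AGs, against 4290 and 501 TPM in ED10 testes and 6698 and 4878 TPM in reference-strain testes. It alternated with mt:CoII for the third place, mt:CoII being above it in 6 of 8 libraries, so these neighbours do not have a fixed order.

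The complex V mRNAs came next and differed from each other. mt:ATPase6, which encodes the proton channel subunit of ATP synthase, held place 5 among the 13 mRNAs in every library. It had 718 and 236 TPM in ED10 AGs and 1506 and 1999 TPM in reference-strain AGs, against 3457 and 206 TPM in ED10 testes and 5549 and 4311 TPM in reference-strain testes. mt:ATPase8, a small accessory subunit read from the same stretch of plus strand, had 379 and 23.4 TPM in ED10 AGs and 303 and 568 TPM in reference-strain AGs, against 146.9 and 5.72 TPM in ED10 testes and 597 and 976 TPM in reference-strain testes. The testis libraries other than that of the HiSeq 2500 all had more mt:ATPase6 than any AG library, whereas the mt:ATPase8 ranges overlapped. The HiSeq 2500 testis library had less mt:ATPase6 than any AG library. Over all 8 libraries, 48.6% of all genes tested had every AG below every testis, and mt:ATPase6 was not among them.

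The 7 complex I mRNAs encode membrane subunits of NADH dehydrogenase and together held 13.9 to 18.0% of mitochondrial mRNA TPM in AGs and 11.0 to 16.6% in testes. mt:ND4 led them, with 477 and 106 TPM in ED10 AGs and 1013 and 1355 TPM in reference-strain AGs, against 1048 and 110.1 TPM in ED10 testes and 2197 and 1797 TPM in reference-strain testes. mt:ND4 was above mt:ND5 in all 8 libraries. mt:ND5 averaged 678 ± 523 TPM in AGs and 1069 ± 819.9 TPM in testes (SD, n = 4 each), and mt:ND1 500.4 ± 392 and 983 ± 665 TPM in AGs and testes. These neighbours exchanged places, mt:ND5 being above mt:ND1 in 5 of 8 libraries. mt:ND3 averaged 323 ± 278 TPM in AGs and 651 ± 467 TPM in testes.

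Of the complex I mRNAs, mt:ND2, mt:ND4L and mt:ND6 had the widest ranges. mt:ND2 had 173 and 5.76 TPM in ED10 AGs and 275 and 429 TPM in reference-strain AGs, against 77.2 and 5.01 TPM in ED10 testes and 362 and 423 TPM in reference-strain testes. mt:ND4L, which shares base 9545 with mt:ND4, had 142.9 and 8.89 TPM in ED10 AGs and 327 and 540.3 TPM in reference-strain AGs, against 105 and 4.66 TPM in ED10 testes and 545 and 617 TPM in reference-strain testes. The highest library exceeded the lowest 85.7 times for mt:ND2 and 132 times for mt:ND4L, compared with 12.99 times for mt:CoIII. mt:ND6 was the lowest mRNA in every library, with 72.3 and 1.70 TPM in ED10 AGs and 27.0 and 39.3 TPM in reference-strain AGs, against 10.3 and 1.48 TPM in ED10 testes and 52.8 and 71.2 TPM in reference-strain testes. It was the sole mRNA whose highest library was the HiSeq 3000 AG library. Its level there exceeded both reference-strain AGs.

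**Figure D2:**
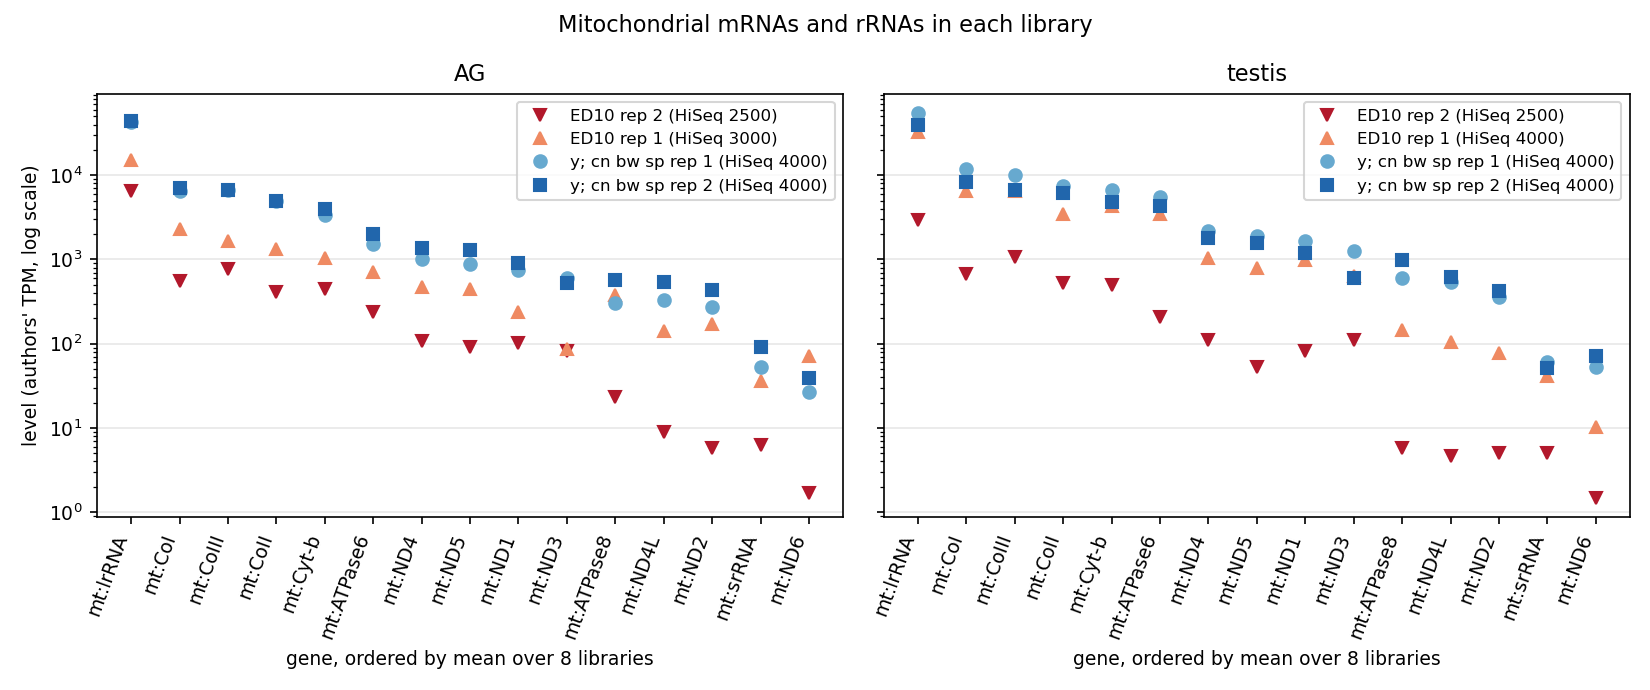
Level in the authors' TPM (y axis, log scale) of the 13 mRNAs and 2 rRNAs of the mitochondrial genome (x axis) in the 4 AG libraries (left panel) and the 4 testis libraries (right panel), 1 point per library. The ED10 replicate 2 libraries, from the HiSeq 2500, lie at the bottom for all 15 genes in both organs, while the order of the genes stays similar.

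The mitochondrial transcripts summed to less in ED10 than in the reference strain in both organs, and to least in the HiSeq 2500 libraries, but only 1 member passed the test. Their summed level was 24334 and 9401 TPM in ED10 AGs against 73609.9 and 74867 TPM in reference-strain AGs, and 61296 and 6311 TPM in ED10 testes against 105783 and 76878 TPM in reference-strain testes. For the 13 mRNAs, the reference-strain mean was 6.88-fold (mt:ND3) to 61.1-fold (mt:ND2) higher than the HiSeq 2500 library in the AG, with a median of 11.98-fold. In the testis it was 7.96-fold (mt:CoIII) to 137.4-fold (mt:ATPase8) higher, with a median of 18.1-fold. The other ED10 library was closer to the reference strain. The reference-strain mean was a median of 3.00-fold higher than it in the AG, where mt:ND6 went the other way at 0.459-fold, and 1.90-fold higher in the testis.

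Across the 8 libraries, limma on log2(TPM + 1) with a term for organ gave a negative difference between ED10 and the reference strain for all 29 members that passed a filter of at least 1 TPM in at least 4 libraries. The mRNA median was -2.42, against 0.15 over all 12130 genes tested. mt:CoII differed by -2.52 ± 0.58 (SE, adjusted p = 0.0882) and mt:lrRNA by -2.18 ± 0.66 (adjusted p = 0.108), so neither passed the threshold of 0.05. Only mt:tRNA:Trp-TCA was called lower in ED10 (-2.32 ± 0.33, adjusted p = 0.0319). In this comparison 0.223% of all genes were called, 0.0247% higher and 0.198% lower in ED10, with 3246 genes at an unadjusted p under 0.05, as were all 29 members. The count of called members ran from 0 to 10 when single libraries were left out: 10 without testis ED10 replicate 1, where 0.354% of all genes were called lower, and 0 without any 1 of the 4 reference-strain libraries or without testis ED10 replicate 2. mt:tRNA:Trp-TCA was among the members called in the fit without testis ED10 replicate 1 alone; without AG ED10 replicate 1 the call was mt:ND6, and without AG ED10 replicate 2 it was mt:tRNA:Tyr-GTA. Without both HiSeq 2500 libraries the mRNA median was -1.18 and 0 members and 0 genes in all were called.

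The low HiSeq 2500 values were shared by few nuclear genes. By a rule chosen after the values were seen, 12 of 13 mRNAs, both rRNAs and 2 tRNAs were at least 2-fold below every other library of their organ in both organs on the TPM + 1 scale, compared with 0.412% of all genes (50 of 12130). mt:ND3 was the sole mRNA outside the rule, since its AG values were 86.7 and 81.8 TPM in the ED10 libraries. Of the 93 nuclear OXPHOS genes, 0 met it. Without the fold condition, 21 of 29 members were lowest in the HiSeq 2500 library in both organs, compared with 10.6% of all genes and 7 of 93 nuclear OXPHOS genes. Both ED10 libraries were below both reference-strain libraries in both organs for 25 of 29 members, compared with 11.4% of all genes and 19 of 93 nuclear OXPHOS genes.

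Within AGs, 6 members were called lower in ED10 (16.4% of all genes were called, 3.38% higher and 13.1% lower). These were mt:ND3 (-2.72 ± 0.73, adjusted p = 0.0360), mt:tRNA:Cys-GCA, mt:tRNA:Gly-TCC, mt:tRNA:Ser-TGA, mt:tRNA:Trp-TCA and mt:tRNA:Tyr-GTA. Within testes, 3 were called lower (2.34% of all genes were called, 0.585% higher and 1.76% lower), namely mt:tRNA:Asn-GTT, mt:tRNA:His-GTG and mt:tRNA:Trp-TCA. The mRNA medians were -2.42 in AGs and -2.53 in testes. The test of the difference between organs called 0 of 29 members (9.41% of all genes, 1.20% positive and 8.21% negative), with 2 at an unadjusted p under 0.05, mt:tRNA:Asn-GTT and mt:tRNA:Ser-TGA. With 2 libraries per group, its intervals were wide: that of mt:CoI ran from -3.59 to 2.83 on the log2 scale.

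**Figure D3:**
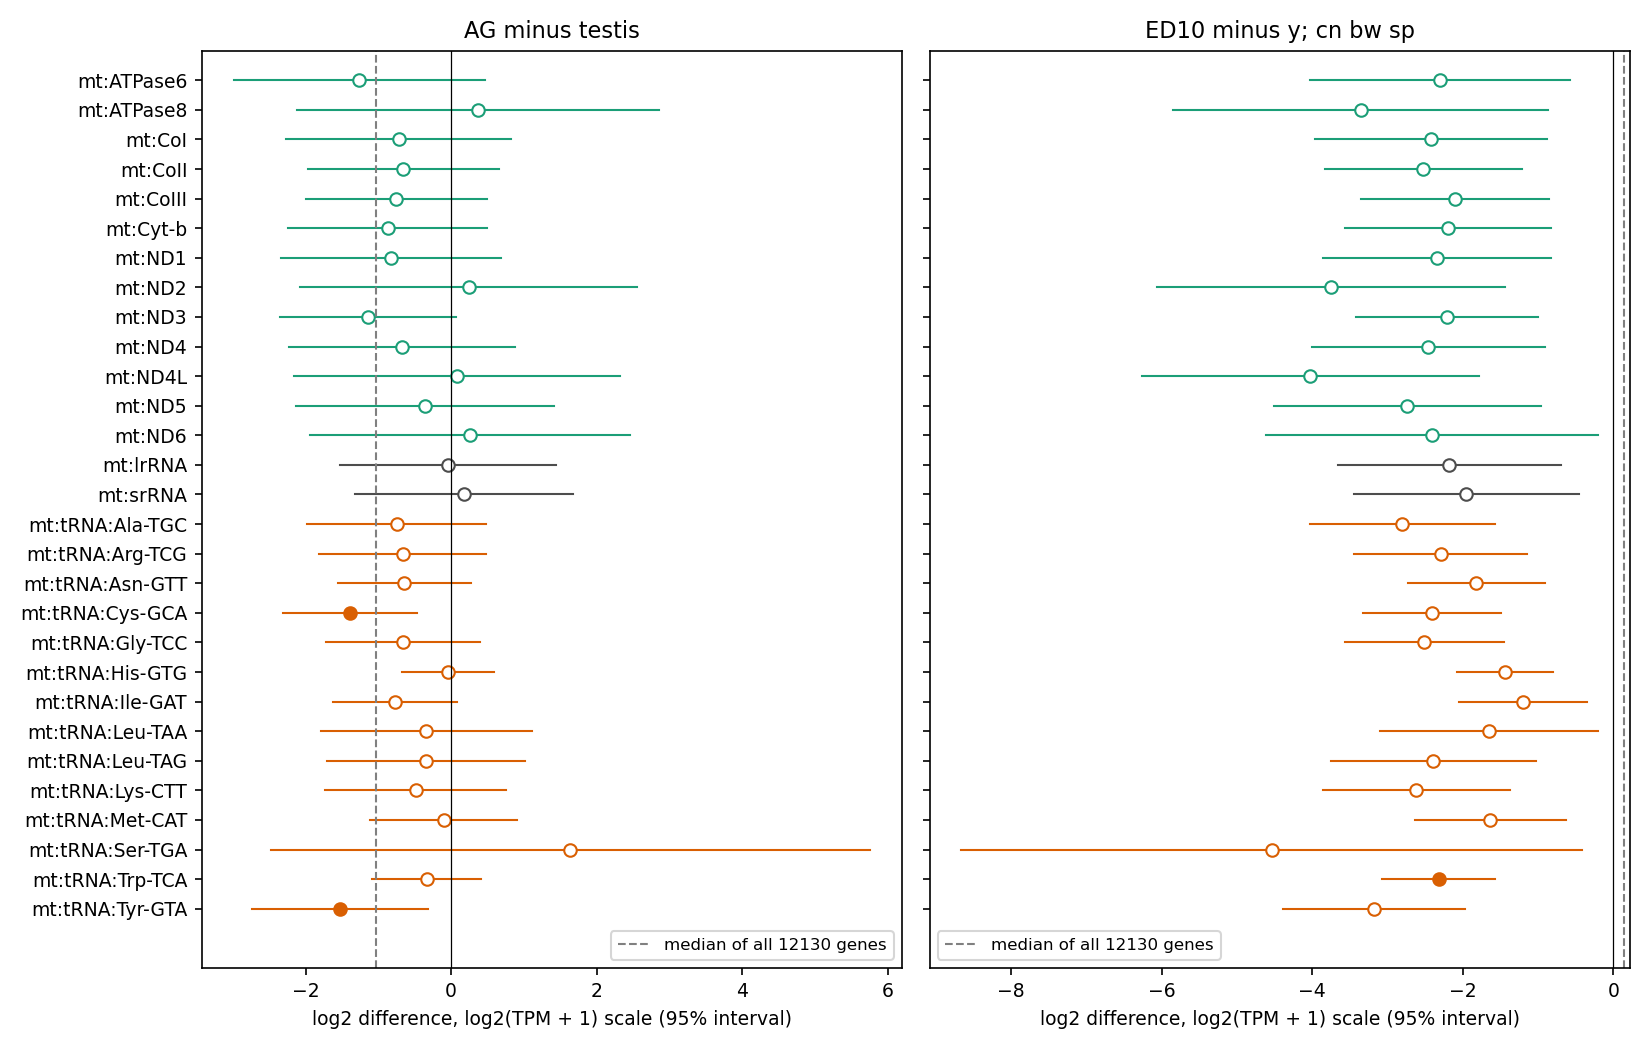
Log2 difference on the log2(TPM + 1) scale (x axis) of the 29 members tested (y axis), AG minus testis on the left and ED10 minus y; cn bw sp on the right, with 95% intervals; filled points passed an adjusted p of 0.05 and dashed lines mark the median of all 12130 genes. All 29 points lie below 0 on the right, while on the left most intervals cross 0 and the filled points are mt:tRNA:Cys-GCA and mt:tRNA:Tyr-GTA.

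Between organs, no mRNA or rRNA of the mitochondrial genome was called in the 8 libraries, and 0 of the mRNAs and 0 of the rRNAs had an unadjusted p under 0.05. The mRNAs had a median difference of -0.68 (AG minus testis, log2), from -1.26 for mt:ATPase6 to 0.37 for mt:ATPase8, and 9 of 13 were negative. mt:CoI differed by -0.72 with a 95% interval from -2.27 to 0.82, and mt:lrRNA by -0.04 with an interval from -1.52 to 1.44. Among all genes the median was -1.04, and 69.4% were called, 17.0% higher and 52.3% lower in AGs. Of 29 members, 2 were called lower and 0 higher, and 0 members had AG and testis ranges that did not overlap, compared with 12.8% of all genes above and 48.6% below. The sign of the mRNA median depended on the scaling: it was 0.11 when libraries were set to an equal total of nuclear protein-coding genes without the 100 highest. With every library rescaled to 1000000, mt:ND3 was also called lower (-1.50 ± 0.49, adjusted p = 0.0201), as were 55.8% of all genes.

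Comparisons within a dissector gave mixed results. The 4 reference-strain libraries alone share dissector and platform and were singled out as a comparison after seeing the data. Among them mt:ATPase6 was lower in AGs by 1.49 ± 0.41 (SE) on the log2 scale, with an adjusted p of 0.0126 over all genes. The median of all genes there was -1.15. In these libraries 5 members were called lower, compared with 49.5% of all genes, and mt:tRNA:Ser-TGA was called higher on the strength of 1 library, compared with 13.2%. mt:lrRNA differed there by -0.10 with an interval from -1.03 to 0.84. In the pair of HiSeq 2500 libraries, which also share a dissector, 6 of 13 mRNAs were lower and 7 higher in the AG, with a median of 0.12 against -0.78 over all genes, and mt:ATPase6 was among the higher. With dissector in place of strain, a fit added after seeing the data that takes the organ difference from these 6 libraries, 0 members were called and 1 had an unadjusted p under 0.05, compared with 48.3% of all genes called lower. The mRNA median was then -0.41, mt:ATPase6 differed by -0.93 ± 0.46 (adjusted p = 0.111) and mt:tRNA:Cys-GCA by -0.83 ± 0.35 (adjusted p = 0.0711). Without the HiSeq 2500 libraries mt:ATPase6 was lower by 1.75 ± 0.37, with an adjusted p of 0.00299. Then 10 members were called lower, among them mt:Cyt-b and mt:ND1, compared with 51.6% of all genes. Without testis ED10 replicate 2 alone the count was also 10, compared with 50.5% of all genes. In each of these fits the share of members called lower was below that of all genes.

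The abundant mRNAs kept similar shares of the mitochondrial mRNA TPM across libraries, and the scarce ones did not. The share of mt:CoI among the mRNAs was 19.3 to 25.3% over all 8 libraries, and that of mt:Cyt-b 11.6 to 15.7%. The share of mt:ATPase8 ran from 0.171 to 4.19%, that of mt:ND2 from 0.150 to 1.92%, that of mt:ND4L from 0.139 to 1.78% and that of mt:ND6 from 0.0367 to 0.799%. The share of mt:ATPase6 was 7.94 and 8.31% in ED10 AGs and 5.50 and 6.59% in reference-strain AGs, against 12.3 and 6.14% in ED10 testes and 11.1 and 11.5% in reference-strain testes. Apart from the HiSeq 2500 testis library, which lay within the AG range, every testis was above every AG. Over all 8 libraries the organs therefore overlapped in this share. Genes of the plus strand supplied 85.7 to 89.2% of mRNA TPM in AGs and 86.3 to 92.5% in testes.

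Relative to the summed mRNAs, the AG and testis values of mt:lrRNA did not overlap. The ratio was 1.68 and 2.30 in ED10 AGs and 1.56 and 1.46 in reference-strain AGs, against 1.18 and 0.879 in ED10 testes and 1.10 and 1.04 in reference-strain testes. The 4 AG libraries were all above the 4 testis libraries. The ratio was chosen after values were seen, and its denominator consists mostly of the complex IV mRNAs. Its numerator depends on how much mt:lrRNA the poly(A) selection captured, which was not measured. On log2 levels minus the mean over the 13 mRNAs, which gives each gene equal weight, the AG values of mt:lrRNA were 5.19 and 6.33 in ED10 and 5.53 and 5.23 in the reference strain, against 5.51 and 5.37 in ED10 testes and 4.95 and 4.67 in reference-strain testes, and the organs overlapped. In the limma fit on that scale 0 of 29 members were called (33.7% of all genes, 8.15% higher and 25.5% lower), with 1 at an unadjusted p under 0.05. The SE was 1.04 for every gene, because limma there gave all genes a pooled variance in place of their own. The spread of each nuclear gene on that scale includes that of the mitochondrial mean, so this SE is not a member's own spread. This fit could therefore detect only large differences between members. Without the HiSeq 2500 libraries it called mt:ATPase6 lower (-1.04 ± 0.28, adjusted p = 0.0150) and mt:srRNA higher (0.85 ± 0.28, adjusted p = 0.0315) in AGs. The share of all genes called in that smaller fit is not given here. With 8 libraries the shares were already 25.5% lower and 8.15% higher, so these calls are not particular to the members.

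**Figure D4:**
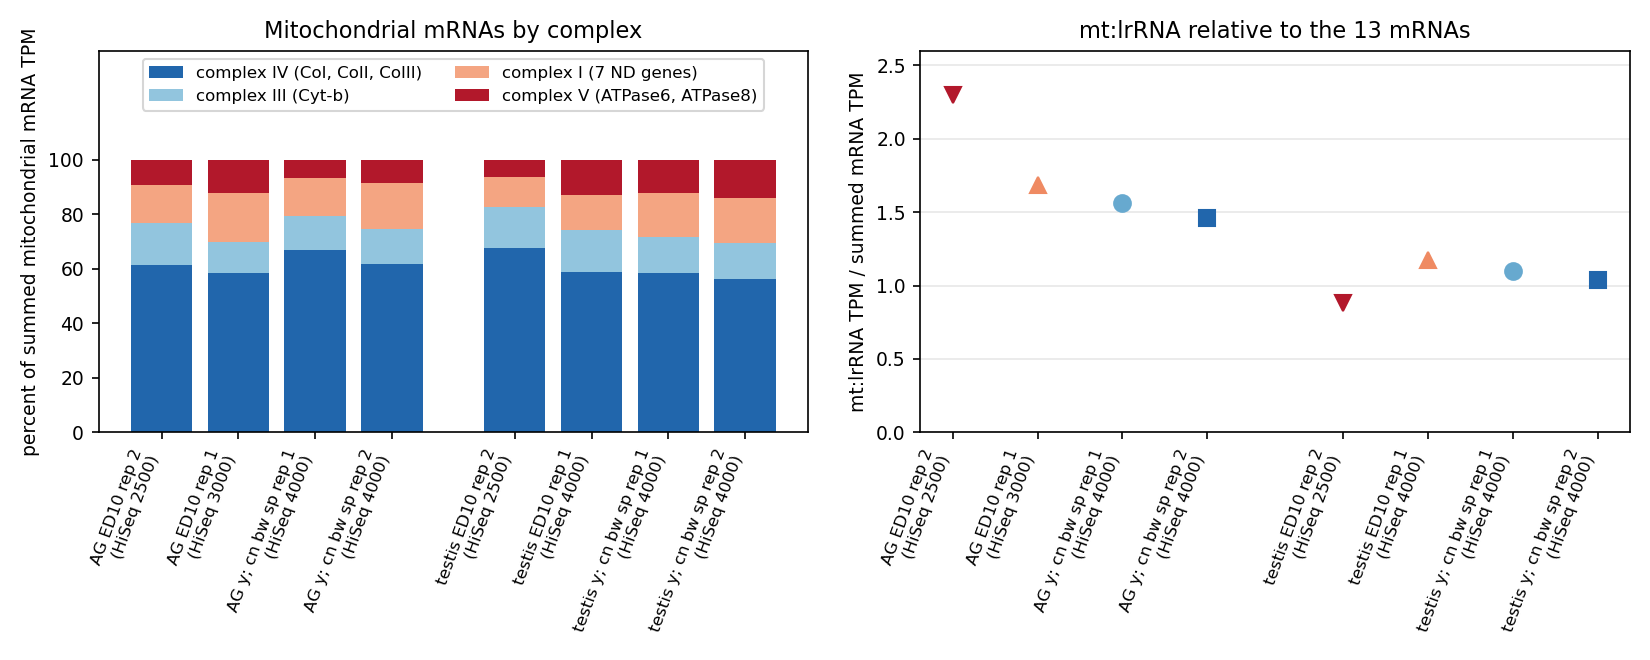
Left, percent of mitochondrial mRNA TPM from the genes of each OXPHOS complex (stacked bars, y axis) in each library; right, ratio of mt:lrRNA TPM to the summed TPM of the 13 mRNAs (y axis), 1 point per library. Complex IV takes between 56.3 and 67.8% of every bar, and the AG ratios, from 1.46 to 2.30, lie above the testis ratios, from 0.879 to 1.18.

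The 22 tRNA genes, 62 to 72 bases long, were low and unevenly detected. Of these, 14 passed the filter, 1 (mt:tRNA:Gly-TCC) had at least 1 TPM in all 8 libraries, and 17 were listed at 0 in some library. The reference-strain libraries listed at most 2 at 0. At 0 were 5 tRNAs in AG ED10 replicate 1 and 9 in AG ED10 replicate 2, and 2 and 14 in testis ED10 replicates 1 and 2. The 8 that did not pass the filter were mt:tRNA:Asp-GTC, mt:tRNA:Gln-TTG, mt:tRNA:Glu-TTC, mt:tRNA:Phe-GAA, mt:tRNA:Pro-TGG, mt:tRNA:Ser-GCT, mt:tRNA:Thr-TGT and mt:tRNA:Val-TAC. Apart from mt:tRNA:Val-TAC they did not exceed 4.96 TPM in any library.

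The tRNA genes called lower in AGs are both on the minus strand just before mt:CoI. mt:tRNA:Tyr-GTA (1403 to 1468) had 0 and 2.96 TPM in ED10 AGs and 17.8 and 25.5 TPM in reference-strain AGs, against 12.97 and 2.61 TPM in ED10 testes and 58.3 and 44.5 TPM in reference-strain testes. Its difference was -1.53 ± 0.54 (adjusted p = 0.0285). mt:tRNA:Cys-GCA had 0 and 1.29 TPM in ED10 AGs and 9.19 and 9.61 TPM in reference-strain AGs, against 7.50 and 2.13 TPM in ED10 testes and 21.3 and 19.1 TPM in reference-strain testes. Its difference was -1.40 ± 0.41 (adjusted p = 0.0122). Within each strain the testis values were above the AG values, except that the HiSeq 2500 testis library had less mt:tRNA:Tyr-GTA than the HiSeq 2500 AG library. mt:tRNA:Cys-GCA kept an adjusted p under 0.05 when any 1 library was left out. mt:tRNA:Tyr-GTA lost it without AG reference-strain replicate 1, AG ED10 replicate 1, testis reference-strain replicate 1 or testis ED10 replicate 1. Neither was called when libraries were rescaled on nuclear genes or with dissector in place of strain.

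mt:tRNA:Trp-TCA, the member called in the strain comparison, overlaps mt:tRNA:Cys-GCA on the opposite strand. It had 0.414 and 0 TPM in ED10 AGs against 4.92 and 5.28 TPM in reference-strain AGs, and 1.38 and 0 TPM in ED10 testes against 5.45 and 7.68 TPM in reference-strain testes. Both ED10 libraries were below both reference-strain libraries in each organ. mt:tRNA:Gly-TCC, between mt:CoIII and mt:ND3, had 5.52 and 1.196 TPM in ED10 AGs against 37.4 and 26.9 TPM in reference-strain AGs, and 13.4 and 4.72 TPM in ED10 testes against 38.4 and 28.6 TPM in reference-strain testes. It followed the same order.

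Of the remaining tRNAs that passed the filter, mt:tRNA:Leu-TAG, which adjoins mt:lrRNA, averaged 10.03 ± 9.46 TPM in AGs and 12.6 ± 9.11 TPM in testes, and mt:tRNA:Lys-CTT 7.22 ± 9.37 and 10.4 ± 10.5 TPM in AGs and testes (SD, n = 4 each). mt:tRNA:Ala-TGC averaged 5.67 ± 5.73 TPM in AGs and 11.9 ± 10.3 TPM in testes, mt:tRNA:Leu-TAA 5.66 ± 3.11 and 10.8 ± 8.48 TPM, and mt:tRNA:Arg-TCG 3.41 ± 2.85 and 7.79 ± 7.19 TPM. mt:tRNA:Met-CAT averaged 3.00 ± 2.88 TPM in AGs and 3.28 ± 2.34 TPM in testes, mt:tRNA:Asn-GTT 1.25 ± 1.01 and 3.58 ± 3.79 TPM, mt:tRNA:His-GTG 1.34 ± 1.02 and 1.68 ± 1.68 TPM, and mt:tRNA:Ile-GAT 0.713 ± 0.699 and 2.25 ± 1.94 TPM. The SDs were large beside the means, and in each of these 9 the organs overlapped. All 9 were negative in the strain comparison without passing its threshold.

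A pair of tRNA genes owed their level to 1 library. mt:tRNA:Ser-TGA (11638 to 11703), which lies between the ends of mt:Cyt-b and mt:ND1, had 0.292 and 0 TPM in ED10 AGs and 3368 and 28.7 TPM in reference-strain AGs, against 18.1 and 0 TPM in ED10 testes and 2.77 and 18.1 TPM in reference-strain testes. The same library, AG reference-strain replicate 1, held 3390 TPM of the adjoining mt:Cyt-b and was not high for it. mt:tRNA:Val-TAC had 0.305 and 0 TPM in ED10 AGs and 15.2 and 0.566 TPM in reference-strain AGs, against 0.901 and 0.115 TPM in ED10 testes and 149.5 and 1.84 TPM in reference-strain testes. The other reference-strain library of the same organ did not repeat either value.

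The nucleus encodes the other OXPHOS subunits, and these genes did not follow the mitochondrial transcripts between libraries of 1 organ. Summed over 93 genes they reached 9266 and 11179 TPM in ED10 AGs and 8388 and 9616 TPM in reference-strain AGs, against 16593 and 18327 TPM in ED10 testes and 21168 and 19403 TPM in reference-strain testes. Within an organ the highest library was 1.33 (AG) and 1.28 (testis) times the lowest, compared with 7.96 and 16.8 times for the summed members. In the strain comparison 0 of 93 were called, 21 had an unadjusted p under 0.05 and the median was -0.01. Of all 12130 genes, 0.223% were called, 3246 had an unadjusted p under 0.05 and the median was 0.15. The lists of nuclear genes were chosen with earlier results of these data known.

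Between organs, 15 of the 93 were called higher and 44 lower in AGs, with a median of -0.65 against -1.04 over all genes. These counts are near the background of 17.0% of genes higher and 52.3% lower. The genes named are those with the smallest adjusted p in each direction, and the lower ones are paralogs of core subunits by their symbols. In complex I (3 of 40 higher, 19 lower) ND-49 differed by 1.202 and ND-20 by 0.92, against -6.24 for ND-20L and -6.19 for ND-51L1. In complex II (1 of 6 higher, 4 lower) SdhB, the iron-sulfur subunit of succinate dehydrogenase, differed by 0.96, against -6.71 for SdhBL and -6.08 for SdhAL. In complex III (2 of 13 higher, 8 lower) Cyt-c1 differed by 1.84 and UQCR-14 by 1.69, against -6.33 for UQCR-11L and -6.06 for UQCR-6.4L. In complex IV (5 of 18 higher, 7 lower) COX7C differed by 2.101 and COX4 by 1.71, against -6.86 for COX5BL and -6.70 for COX7CL. In complex V (4 of 16 higher, 6 lower) ATPsyndelta differed by 1.47 and ATPsynbeta, the catalytic subunit, by 1.16, against -6.99 for ATPsynGL and -6.06 for ATPsynbetaL. These named genes all passed the adjusted threshold, and ATPsynbetaL, for example, averaged 0.465 ± 0.573 TPM in AGs and 92.6 ± 12.3 TPM in testes. Within AGs, 23 of the 93 genes were called lower in ED10 (13.1% of all genes), among them 9 of these 10 paralogs, ATPsynbetaL being the exception. The same comparison called 4 of 10 germline markers lower, and the part of testis RNA in the AG values of the paralogs was not tested.

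**Figure D5:**
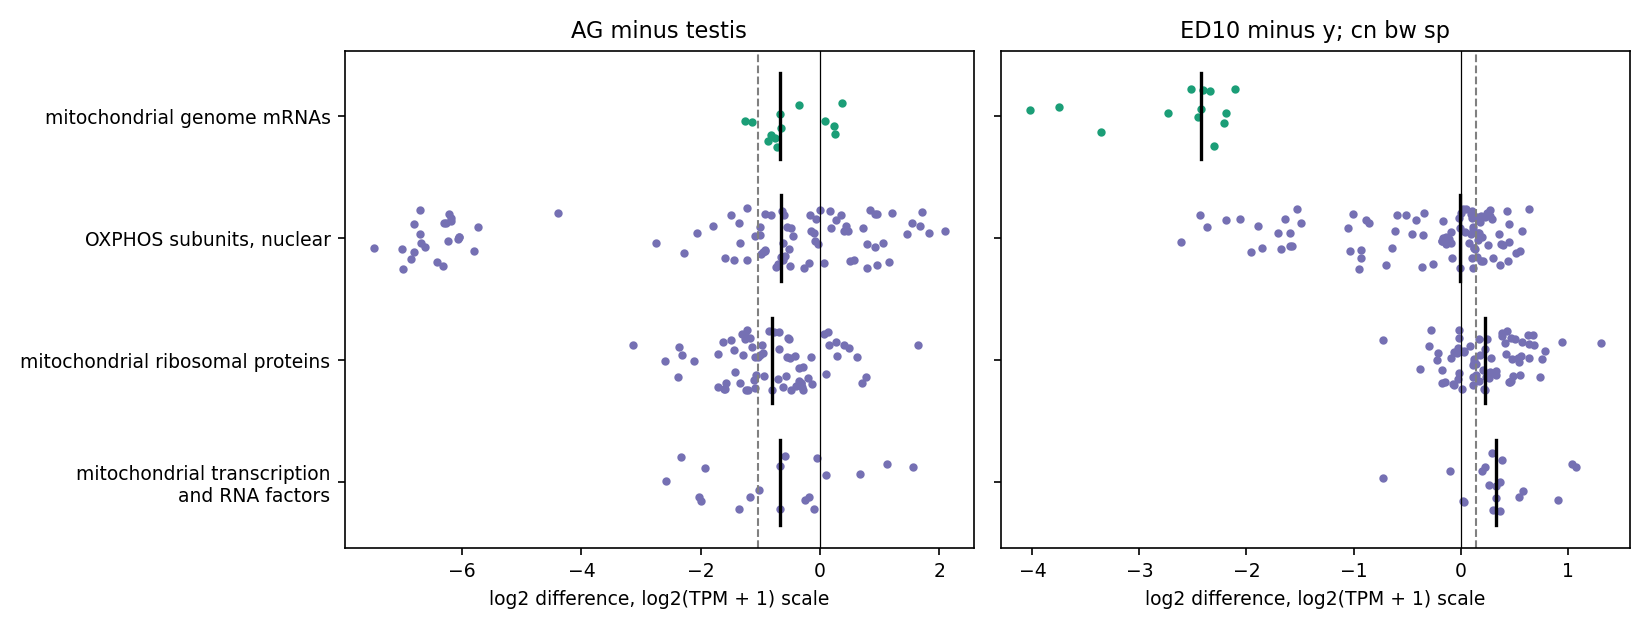
Log2 difference per gene on the log2(TPM + 1) scale (x axis), AG minus testis on the left and ED10 minus y; cn bw sp on the right, for mitochondrial mRNAs and 3 lists of nuclear genes (y axis); black bars are list medians, dashed lines the median of all genes, and vertical scatter has no meaning. On the right the mitochondrial mRNAs lie between -4.02 and -2.10, while the nuclear list medians are -0.01, 0.23 and 0.33.

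Genes that express and maintain the mitochondrial genome were called lower in AGs about as often as all genes (52.3%), with medians of -0.80 for the ribosomal proteins and -0.67 for the factors against -1.04 over all genes. Of 71 mitochondrial ribosomal protein genes 2 were called higher, a smaller share than the 17.0% of all genes, and 39 lower. The higher were mRpS2 (1.64) and mRpL33 (0.77), and mRpS18A (-3.14) and mRpS18C (-2.31) had the smallest adjusted p among the lower. Of 19 transcription and RNA factors, 2 were higher and 9 lower, compared with the same 17.0 and 52.3% of all genes. PolrMT, the mitochondrial RNA polymerase, averaged 2.87 ± 2.72 TPM in AGs and 12.3 ± 2.65 TPM in testes (-2.04, adjusted p = 0.000418). MTPAP, the mitochondrial poly(A) polymerase, averaged 3.78 ± 2.19 TPM in AGs and 16.8 ± 3.63 TPM in testes (-1.999, adjusted p = 0.00103). Also lower were rswl (-2.33), mldr (-2.58), PolG1, the catalytic subunit of the mitochondrial DNA polymerase (-1.92), the RNA helicase gene Suv3 (-1.36), the exoribonuclease gene PNPase (-1.17), mtTFB1 (-1.03) and mTerf5 (-0.67). mTerf3 (1.57) and SLIRP2 (1.12) were higher in AGs. TFAM, the packaging factor of mitochondrial DNA, differed by -0.10 and did not pass the test, nor did PolG2, scu, mtSSB, mTTF, SLIRP1, mtTFB2 and mtDNA-helicase. In the strain comparison 0 of 71 and 0 of 19 were called, with 5 and 4 at an unadjusted p under 0.05, and the medians were 0.23 and 0.33. Of all 12130 genes, 0.223% were called there and 3246 had an unadjusted p under 0.05.

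Small nuclear RNAs and nucleus-encoded tRNAs normally lack a poly(A) tail. Neither list had its lowest sum in the HiSeq 2500 library of both organs. The 2S rRNA gene copies 2SrRNA:CR45836, 2SrRNA:CR45840 and 2SrRNA:CR45843 were lowest there, but they were picked by their low HiSeq 2500 values. Their low place was therefore fixed in advance. Small nuclear RNAs (31 genes) summed to 3.41 and 18.2 TPM in ED10 AGs and 53.1 and 37.7 TPM in reference-strain AGs, against 60.9 and 142.8 TPM in ED10 testes and 157 and 99.1 TPM in reference-strain testes. Of the 18 that were tested, 12 were called lower in AGs, compared with 52.3% of all genes. Among them were snRNA:U12 (-4.10) and snRNA:U6atac (-2.19). Between strains 0 were called, with 5 at an unadjusted p under 0.05, compared with 0.223% called and 3246 of 12130 among all genes. Nucleus-encoded tRNAs (295 genes) summed to 35.6 and 92.8 TPM in ED10 AGs and 73.9 and 90.7 TPM in reference-strain AGs, against 33.6 and 9.60 TPM in ED10 testes and 23.6 and 22.9 TPM in reference-strain testes. Here the HiSeq 2500 library was the lowest in the testis and the highest in the AG. Only 3 of the 295 were tested, of which tRNA:Gly-TCC-1-1 (4.00) and tRNA:Ala-TGC-1-1 (2.504) were higher in AGs and tRNA:Thr-AGT-1-2 (-1.99) was lower. Histone genes summed to at most 0.850 TPM in AGs and 18.6 TPM in testes, and 0 of 111 passed the filter.

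Muscle sheathes both organs and is rich in mitochondria. The sums of its markers ordered the libraries differently from the mitochondrial transcripts, and the part of muscle RNA in those transcripts was not tested. The 10 genes summed to 719 and 1261 TPM in ED10 AGs and 579 and 1357 TPM in reference-strain AGs, against 362 and 869.7 TPM in ED10 testes and 224 and 267 TPM in reference-strain testes. The HiSeq 2500 testis library, with the fewest mitochondrial transcripts, had the most muscle marker TPM among testes. Fat body markers (5 genes) did not exceed 26.0 TPM and neuron markers (5 genes) 46.1 TPM in any library, and ejaculatory duct and bulb markers (2 genes) summed to 274 to 2593 TPM in AGs, against 26.1 to 51.0 TPM in testes.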

How the data were processed

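Total RNA of AGs and testes was made into directional, poly(A)-selected libraries by the authors, who aligned paired reads with STAR 2.5.3 to the release 6 genome of FlyBase and estimated annotated transcripts with StringTie. The version of StringTie differs between their sources (1.3.4 in the submitters' processing notes, another in the methods), and Trimmomatic is named without a version. The deposited values are a signal, the authors' TPM per gene and library, and since totals exceed 1000000 they were not treated as TPM that sum to that value. How transcripts were summed to genes is not given in the sources used here. Runs of 1 library count once, and 0 sample columns were left out.

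Symbols came from a name table (17502 of 17727 IDs matched, 225 did not) and positions from a gene annotation of BDGP6, which is FlyBase's release 6 assembly. Differences were fitted with limma 3.58.1 in R 4.3.3 on log2(TPM + 1), two-sided, over genes with at least 1 TPM in at least 4 of 8 libraries (12130 genes), with Benjamini-Hochberg adjustment over all of them and a threshold of 0.05. Folds on this scale understate the change of low genes. The main model had organ and strain. Strain within each organ and its difference between organs came from 4 group means, and a further fit used levels minus each library's mean over the 13 mitochondrial mRNAs. Libraries are separate samples, but separate flies are stated only as pools, and p-values measure the spread between libraries. In a simulation over all 12130 genes the organ test was checked for recovery of known changes. Named were all members above the filter and, from each nuclear list, up to 2 genes per direction with the smallest adjusted p in the organ comparison, and all transcription and RNA factors; genes outside this rule are named as chosen after their values were seen. Members and lists were chosen with earlier results of these data known. Alternatives covered pseudocounts of 0.1 and 10, filters, scalings, the strain term, dissector, the variance prior and libraries left out. Python 3.11, pandas 2.3 and matplotlib 3.10 were used. Listed names without a match (Peb, PebII, PebIII, para, bsf, bor and JhI-1) were not analysed here, and the RNA polymerase, also listed as mtRNApol, entered once as PolrMT. The other species were not used here.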

Additional observations from a re-analysis of the deposited data

Results flagged for a closer look

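Among 66 sets of 4 libraries (each tested member, the 3 class sums and the mt:lrRNA to mRNA ratio, in each organ) 2 contained a library far from the others, judged by its gap to the nearest library divided by the range. Chance flags about 1 in 20 such sets. mt:tRNA:Ser-TGA reached 3368 TPM in AG reference-strain replicate 1, where the other AG libraries had 0.292 and 0 TPM in ED10 and 28.7 TPM in the reference strain. The summed tRNAs of the same library, 3537 TPM, stood apart for that gene, since the other AG libraries had sums of 17.2 and 17.0 TPM in ED10 and 152 TPM in the reference strain. The cause was not tested.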

How the results depend on the processing

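The counts of members called lower between organs (2 as reported) were 3 (mt:ND3 added) with rescaling to 1000000, 1 with a pseudocount of 0.1 and with no filter, 0 with at least 1 TPM in every library, with either rescaling on nuclear genes and with no strain term, 10 without the HiSeq 2500 libraries, 1 to 10 with 1 library left out, and 5 (with 1 higher) in the 4 reference-strain libraries and 0 with dissector in place of strain, both added after seeing the data. Members called lower in ED10 (1 as reported) were 0 with a pseudocount of 0.1 or 10, with no filter, with at least 1 TPM in every library, with rescaling to 1000000 and without the HiSeq 2500 libraries, 2 with rescaling on nuclear protein-coding genes without the 100 highest, 8 with the median ratio, 4 with a trended robust prior, and 0 to 10 with 1 library left out. Within AGs the count was 13 instead of 6 with the median ratio, and within testes 1 instead of 3 with a pseudocount of 0.1. The share of all genes called is not given here for most of these settings. A change in these counts is therefore not read as a result about the members. In the fit relative to the mitochondrial mRNAs, 1 member was higher with a pseudocount of 10, 1 higher and 1 lower without the HiSeq 2500 libraries, and 0 to 1 higher with 1 library left out. The mRNA median between strains was -1.18 without the HiSeq 2500 libraries and -3.09 to -1.81 with 1 library left out; between organs it was -1.19 to -0.05 with 1 library left out and 0.11 to -1.04 over the scalings. The AG share moved to 7.86% without the 100 highest nuclear genes. No paired analysis was possible because replicate numbers follow accession order and pair no libraries. Except where a setting tests fewer genes or fewer libraries by construction, the cause was not tested. Groups of 2 libraries and unused read counts limit what could be detected.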

Other observations

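There were 50 genes that met the earlier HiSeq 2500 rule (at least 2-fold below every other library of the same organ, in both organs). They held 34 nuclear genes, named here after their values were seen. Among them were copies of the 2S ribosomal RNA gene, an RNA of the cytosolic ribosome. 2SrRNA:CR45840 had 77.4 and 17.3 TPM in ED10 AGs and 599 and 766 TPM in reference-strain AGs, against 122 and 34.5 TPM in ED10 testes and 155 and 128 TPM in reference-strain testes. These copies are near-identical, so reads cannot be assigned to 1 of them with certainty. Seminal fluid genes made up another group, with Acp26Aa at 15945 and 2776 TPM in ED10 AGs and 15013 and 19410 TPM in reference-strain AGs, against 5.30 and 0.912 TPM in ED10 testes and 57.4 and 220.1 TPM in reference-strain testes. The testis values of such genes are part of the traces of the other organ given above. The gene orb2, which encodes an RNA-binding protein that acts in spermatogenesis, had 11.3 and 3.48 TPM in ED10 AGs and 12.8 and 33.5 TPM in reference-strain AGs, against 607 and 196 TPM in ED10 testes and 542 and 482 TPM in reference-strain testes.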
